A study of Mus musculus with 7 samples.

Results

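The CCN family and the core of the YAP pathway were followed through 7 tumor libraries of the mouse mammary carcinoma line EMT6. The set held 10 genes of the 53465 in the table: Ccn1, Ccn2, Ccn3, Ccn4 and Ccn5, the coactivators Yap1 and Wwtr1, and the YAP target genes Ankrd1, Amotl2 and Lats2. The CCN genes were also matched by their older symbols Cyr61, Ctgf, Nov, Wisp1 and Wisp2. All 10 genes were found, and all 10 passed the filter on low counts. They were chosen from genes whose values in EMT6-PTR against EMT6-P tumors were already known, so that comparison is given here as a description of them and carries no test.

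All tumors began as EMT6 cells placed orthotopically, in the mammary fat pad of BALB/c mice. Treatment ran every 3 days at 250 μg per mouse until the tumors reached the institutional endpoint. The 3 EMT6-P tumors grew under an isotype control antibody, and the 3 EMT6-PTR tumors, named PDR in the sample labels, grew under anti-PD-L1 after resistance had developed. A single metastasis came from the EMT6-PTR arm under the same antibody, and its label gives breast tumor tissue as its source. The labels do not say whether the EMT6-PTR tumors derive from 1 selected cell population or whether each tumor came from its own mouse, so errors measure only the spread between these samples. RNA was taken from whole tissue, in which fewer cells of a type and less RNA per cell cannot be told apart.

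CCN proteins are secreted, cysteine-rich matricellular proteins that bind integrins, heparan sulfate proteoglycans and growth factors in the extracellular matrix. Ccn1 and Ccn2 are widely used readouts of YAP and TAZ, the latter encoded by Wwtr1. These coactivators do not bind DNA themselves and act through TEAD transcription factors. When the Hippo kinase cascade is active, LATS kinases phosphorylate YAP and TAZ and keep them out of the nucleus, a step that changes the protein and is not read by the RNA level of either gene. Ccn1, Ccn2 and Ankrd1 also respond to actin dynamics through SRF with its MRTF cofactors, and Ccn2 to TGF-beta.

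RefSeq promoter sequences of build GRCm38.p6 were held for 6 of the 10 genes, Ccn1, Yap1, Wwtr1, Ankrd1, Amotl2 and Lats2, in 8 windows. The 250 bases before each start were searched on both strands for the TEAD core GGAATG, which reads CATTCC on the other strand, for the AP-1 motif TGANTCA and for the CArG box bound by SRF. A TEAD core lay in 6 of the 8 windows, belonging to 5 of the 6 genes, and Lats2 had none in either of its windows. The windows of Wwtr1 overlap and hold the same core, which is counted in each of them. Over 32851 promoter windows of the same length, 12.6% held at least 1 TEAD core and 1.02% held 2 or more, as Ankrd1 did. None of the member windows held the AP-1 motif or the CArG box, which occurred in 6.75% and 1.47% of all windows. The 30 bases around each TEAD core are shown because Ankrd1, Ccn1 and Amotl2, which share it with the coactivators, were lowest in the same EMT6-PTR tumor in which Yap1 and Wwtr1 were highest. Lats2, without a match, was lowest there too. So was Ccn4, while Ccn2 and Ccn5 were highest there, and no promoter sequence was held for these genes. That tumor, EMT6-PTR replicate 3, was the lowest for 34.5% and the highest for 32.7% of all genes tested. A link between the core and these levels was not tested. Capitals mark the core, and each line is written 5′ to 3′ on the strand of its gene.
Ankrd1, first core, chr19:36120037-36120066, minus strand: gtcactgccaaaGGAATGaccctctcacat
Ankrd1, next core, chr19:36119950-36119979, minus strand: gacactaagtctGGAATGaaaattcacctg
Ccn1, chr3:145650071-145650100, minus strand: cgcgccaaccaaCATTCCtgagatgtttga
Amotl2, chr9:102717727-102717756, plus strand: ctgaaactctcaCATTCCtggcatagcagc
Yap1, chr9:8004720-8004749, minus strand: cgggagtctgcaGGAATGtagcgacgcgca
Wwtr1, chr3:57576029-57576058, minus strand: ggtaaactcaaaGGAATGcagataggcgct
The cores of Ankrd1 begin 210 and 123 bases before its start, that of Ccn1 103 bases and that of Amotl2 65 bases. Those of Yap1 and of the upstream Wwtr1 window begin 141 and 136 bases before the start. The whole Ankrd1 window is covered by annotated exons of the gene in GENCODE M21, as are 136 of the 250 bases of the Amotl2 window. A match of these letters is a description and was not tested as a binding site.

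Levels are given as counts per 1000000 counts (CPM) on an upper-quartile scale shared by all 7 libraries, whose totals ranged from 20430110 to 25213472 estimated counts. EMT6-PTR replicate 3 stood apart from the other tumors: across genes, its log2 CPM correlated with theirs at 0.889 to 0.922, against 0.947 to 0.99 among the other 5. In that tumor, the summed CPM of 9 fibroblast markers was 16700 against 3440 to 6250 in the other 5 tumors, and that of 7 epithelial markers was 612 against 2380 to 2730. Most of the fibroblast sum came from Col3a1 at 9090 CPM and Dcn at 3350 CPM. Pdgfra, Pdgfrb, Lum, Pi16 and Fap were also higher there than in the other 5 tumors. Col1a1 at 2750 CPM lay inside the range of the others and Dpt at 1.41 CPM was the lowest. The summed CPM of 7 immune markers was 289 against 466 to 651, and that of 10 tendon and cartilage markers 326 against 95.2 to 130. Most of the tendon and cartilage sum came from Fmod, at 256 CPM against 3.41 to 20.4 CPM in the others. Comp at 22 CPM and Col2a1 at 0.664 CPM were also highest there. Scx at 11.4 CPM, Sox9 at 35.8 CPM and Thbs4 at 0.781 CPM were the lowest. Krt8 stood at 505 CPM there and at 1680 to 1900 CPM in the others, so the epithelial marker that was most abundant in EMT6 tumors was lower but not absent. Krt18, Krt14 and Cdh1 were also lowest there. Epcam at 8.83 CPM, Krt5 at 1.13 CPM and Cldn4 at 0.391 CPM lay inside the range of the others. EMT6-PTR replicate 2 gave 13.8% of its counts to CT010467.1, a gene that took 0.442% to 1.35% elsewhere among the tumors. The part of these differences in the values below was not tested, and each fold change is given with and without EMT6-PTR replicate 3 where that tumor decides it.

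Ccn2, also known as connective tissue growth factor, lies at chr10:24595442-24598683. It had 261.9, 288.1 and 291.4 CPM in EMT6-P replicates 1 to 3 and 332.2, 673.3 and 2810 CPM in EMT6-PTR replicates 1 to 3. All EMT6-PTR tumors lay above all EMT6-P tumors, by little in replicate 1 and by far in replicate 3, which was 4.17 times the next highest tumor. The coefficient of variation was 5.77% among EMT6-P tumors and 106% among EMT6-PTR tumors. The log2 fold change was 2.18 ± 0.75 (SE, n = 3 per group), or 4.53-fold, and 0.84 on the log2 scale in the fit that omitted EMT6-PTR replicate 3. Ccn2 was thus uniform under the isotype control, and the EMT6-PTR tumors differed among themselves more than the closest of them differed from the controls. The estimated counts of Ccn2 were fractional in all 7 libraries, so the counting program assigned part of its reads by estimation.

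Ccn1, the family member most often read beside Ccn2 as a YAP target, differed from it. It lies at chr3:145646976-145649981 and had 240.8, 475.1 and 264.8 CPM in EMT6-P replicates 1 to 3 and 320.6, 454.2 and 90.53 CPM in EMT6-PTR replicates 1 to 3. The groups overlapped, and EMT6-PTR replicate 3, the tumor with the most Ccn2, had the least Ccn1. Ccn1 had a log2 fold change of -0.18 ± 0.57 (SE, n = 3 per group), which became 0.24 without EMT6-PTR replicate 3. Within a library, the ratio of Ccn2 to Ccn1 per kb of exon does not depend on the scaling. It was 0.768, 0.428 and 0.777 in EMT6-P replicates 1 to 3 and 0.731, 1.05 and 21.9 in EMT6-PTR replicates 1 to 3. EMT6-PTR replicate 1 lay inside the EMT6-P range of this ratio, replicate 2 slightly above it and replicate 3 far outside it. Ccn2 made up 26.9% to 33.6% of the summed level per kb of the 5 CCN genes in EMT6-P tumors and 36.5%, 42.7% and 85.1% in EMT6-PTR replicates 1 to 3.

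**Figure D1:**
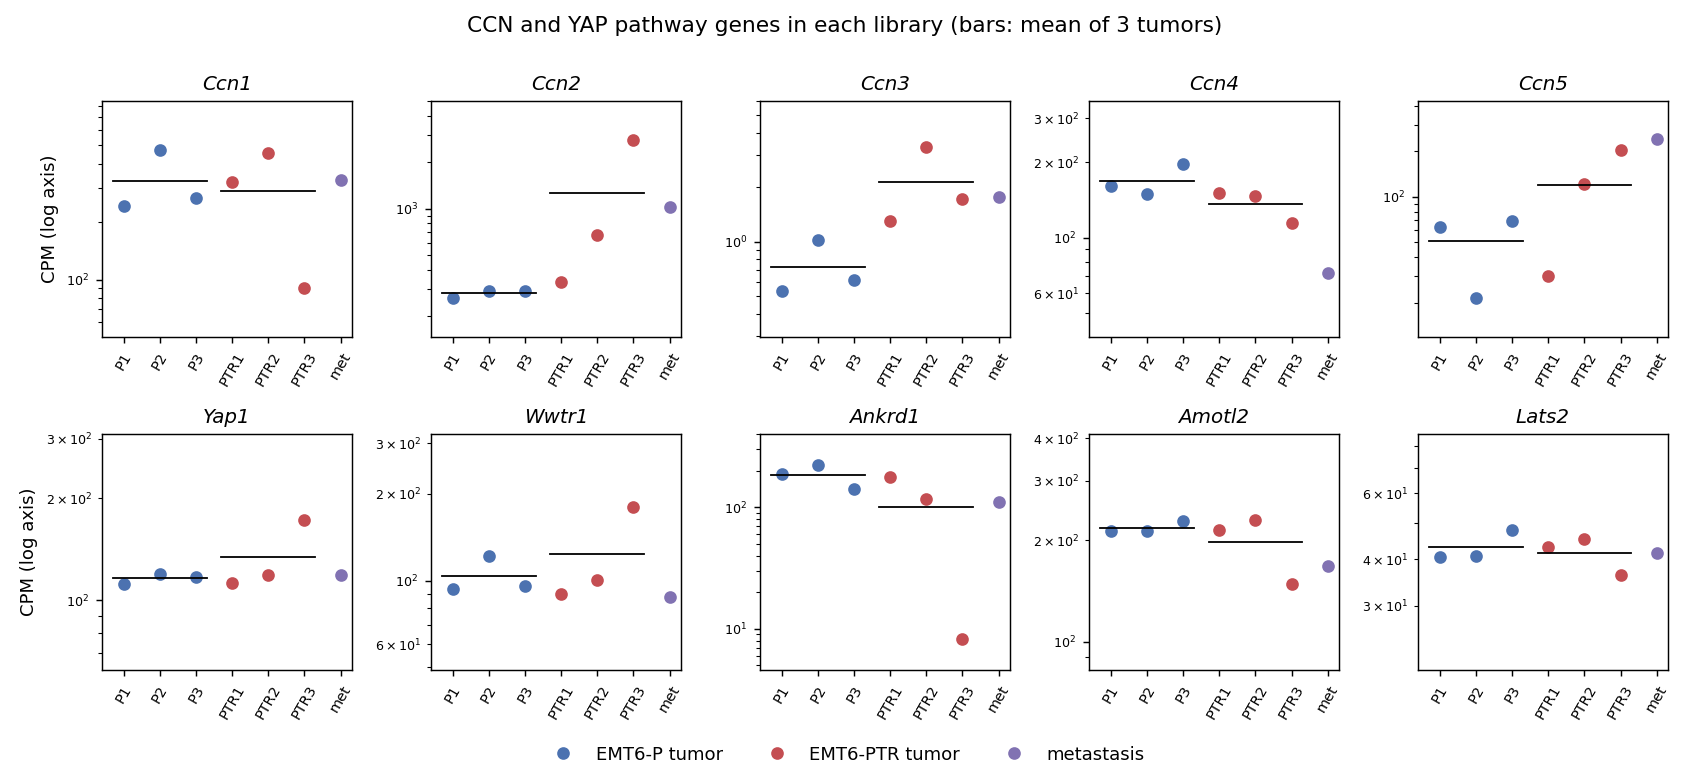
CPM on a log axis of each of the 10 genes in 3 EMT6-P tumors (P1 to P3), 3 EMT6-PTR tumors (PTR1 to PTR3) and the metastasis (met). Each point is 1 library and each black bar the mean of 3 tumors. In PTR3, Ccn2 stands at 2810 CPM and Ankrd1 at 8.166 CPM, the highest and the lowest value of each gene.

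Ccn5, which lacks the C-terminal cystine knot domain of the other CCN proteins, lies at chr2:163820861-163833146. It had 63.02, 21.4 and 69.66 CPM in EMT6-P replicates 1 to 3 and 30.24, 122 and 205 CPM in EMT6-PTR replicates 1 to 3. EMT6-PTR replicates 2 and 3 lay above every EMT6-P tumor, while replicate 1 lay inside their range. On the log2 scale the fold change was 1.21 ± 0.72 (SE, n = 3 per group), and 0.56 without EMT6-PTR replicate 3. Leaving out EMT6-P replicate 2, the control with the least Ccn5, gave 0.84, also under 2-fold.

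Ccn3, whose older name Nov stands for nephroblastoma overexpressed, lies at chr15:54745702-54754039 and was the scarcest of the family. It had 0.5361, 1.028 and 0.6132 CPM in EMT6-P replicates 1 to 3 and 1.309, 3.342 and 1.719 CPM in EMT6-PTR replicates 1 to 3. These values rest on 11, 22 and 13 counts in EMT6-P and on 30, 60 and 44 counts in EMT6-PTR tumors. The groups did not overlap, with replicate 2 and not replicate 3 the highest. Its log2 fold change was 1.53 ± 0.49 (SE, n = 3 per group), with 1.66 when EMT6-PTR replicate 3 was left out and 1.06 when replicate 2 was.

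Ccn4, a gene named for its induction by Wnt1, lies at chr15:66891320-66923201. It had 160, 149.2 and 195.9 CPM in EMT6-P replicates 1 to 3 and 150.5, 145.9 and 113.8 CPM in EMT6-PTR replicates 1 to 3. The groups overlapped, with EMT6-PTR replicate 3 the lowest. Its log2 fold change of -0.30 ± 0.18 (SE, n = 3 per group) was the one negative value of the family besides that of Ccn1.

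The coactivators varied little outside 1 tumor. Yap1 (chr9:7931999-8004596) had 111.7, 119.5 and 116.8 CPM in EMT6-P replicates 1 to 3 and 112.8, 118.7 and 172.3 CPM in EMT6-PTR replicates 1 to 3. Wwtr1 (chr3:57455649-57575910) had 93.23, 121.4 and 95.7 CPM in EMT6-P and 90.02, 100.8 and 179.6 CPM in EMT6-PTR tumors. Both genes lay within or next to the EMT6-P range in EMT6-PTR replicates 1 and 2 and were highest in replicate 3. The log2 fold change was 0.22 ± 0.19 for Yap1 and 0.26 ± 0.29 for Wwtr1 (SE, n = 3 per group). Without EMT6-PTR replicate 3, these were 0.00 and -0.12. The estimated counts of Yap1, like those of Ccn2, were fractional in all 7 libraries.

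Ankrd1, which encodes a nuclear and sarcomeric ankyrin repeat protein and is a standard YAP target, lies at chr19:36111961-36120099. It had 188.2, 223.2 and 140.4 CPM in EMT6-P replicates 1 to 3 and 177.2, 116.8 and 8.166 CPM in EMT6-PTR replicates 1 to 3. EMT6-PTR replicate 1 lay inside the EMT6-P range, replicate 2 below it and replicate 3 lower still, at -4.39 from the EMT6-P mean on the log2 scale. The log2 fold change was -0.87 ± 0.90 (SE, n = 3 per group), and it was -0.32 without EMT6-PTR replicate 3 but -1.56, past 2-fold, without replicate 1. The estimate also depended on the model, with -1.73 in limma-voom. The ratio of Ccn2 to Ankrd1 per kb of exon was 1.3 to 2.09 in EMT6-P tumors and 1.89, 5.81 and 347 in EMT6-PTR replicates 1 to 3. Since Ankrd1 is abundant in striated muscle, markers of skeletal muscle were set beside it. Their summed CPM was 756, 18.5 and 463 in EMT6-P replicates 1 to 3 and 4720, 12.9 and 7.38 in EMT6-PTR replicates 1 to 3. The tumors with the lowest muscle sums, EMT6-PTR replicates 2 and 3, were also those with the least Ankrd1. EMT6-P replicate 2, with the next lowest muscle sum, had the most Ankrd1. The part of muscle RNA in the Ankrd1 levels was not tested.

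Amotl2, an angiomotin family protein that binds YAP, and Lats2, a kinase that phosphorylates it, are YAP targets that act back on the pathway. Amotl2 (chr9:102716672-102733418) had 212.2, 213.1 and 227.7 CPM in EMT6-P replicates 1 to 3 and 214.1, 229 and 148 CPM in EMT6-PTR replicates 1 to 3. Lats2 (chr14:57689662-57758388) had 40.45, 40.88 and 47.97 CPM in EMT6-P and 43.07, 45.17 and 36.3 CPM in EMT6-PTR tumors. In both genes the groups overlapped and EMT6-PTR replicate 3 was the lowest tumor, by much less than for Ankrd1. The log2 fold change was -0.14 ± 0.19 for Amotl2 and -0.05 ± 0.15 for Lats2 (SE, n = 3 per group), and 0.02 and 0.03 without EMT6-PTR replicate 3.

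**Figure D2:**
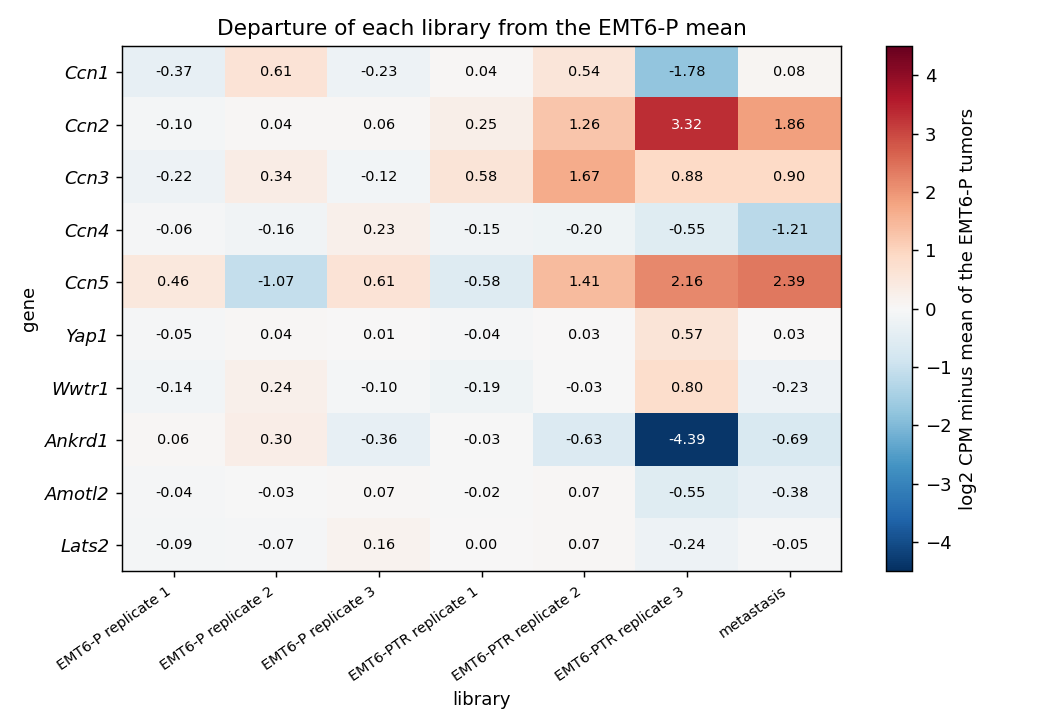
Log2 CPM of each gene in each library minus the mean log2 CPM of the 3 EMT6-P tumors, with 0.5 added to each CPM before the logarithm. The value is written in each cell and the color scale is in log2 units. EMT6-PTR replicate 3 holds both the highest value, 3.32 for Ccn2, and the lowest, -4.39 for Ankrd1.

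Counted over the set, a difference of at least 2-fold was reached upward by 3 of the 10 genes (Ccn2, Ccn3 and Ccn5) and downward by 0. The same size was reached upward by 6.27% and downward by 1.29% of the 15645 genes tested. Without EMT6-PTR replicate 3, the set's count was 1, which was Ccn3. The groups were fully separated upward for Ccn2 and Ccn3, 2 of the 10 genes, and downward for 0, beside 9.52% and 11.8% of all genes. In the quasi-likelihood test of edgeR, with p-values adjusted by Benjamini-Hochberg, 0 of the 10 had an adjusted p under 0.05, as was so for 0% of all genes. DESeq2 also called 0 of the 10, beside 2.05% of the genes to which it gave an adjusted p. Without adjustment, 2 of the 10 and 11.4% of all genes had a p under 0.05 in edgeR. Because the set was chosen with these changes known, nothing is read from these shares. The median log2 fold change was 0.08 over the set and 0.03 over all genes tested. EMT6-PTR replicate 3 was the lowest of the 6 tumors for 5 of the 10 genes and the highest for 4, beside 34.5% and 32.7% of all genes.

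**Figure D3:**
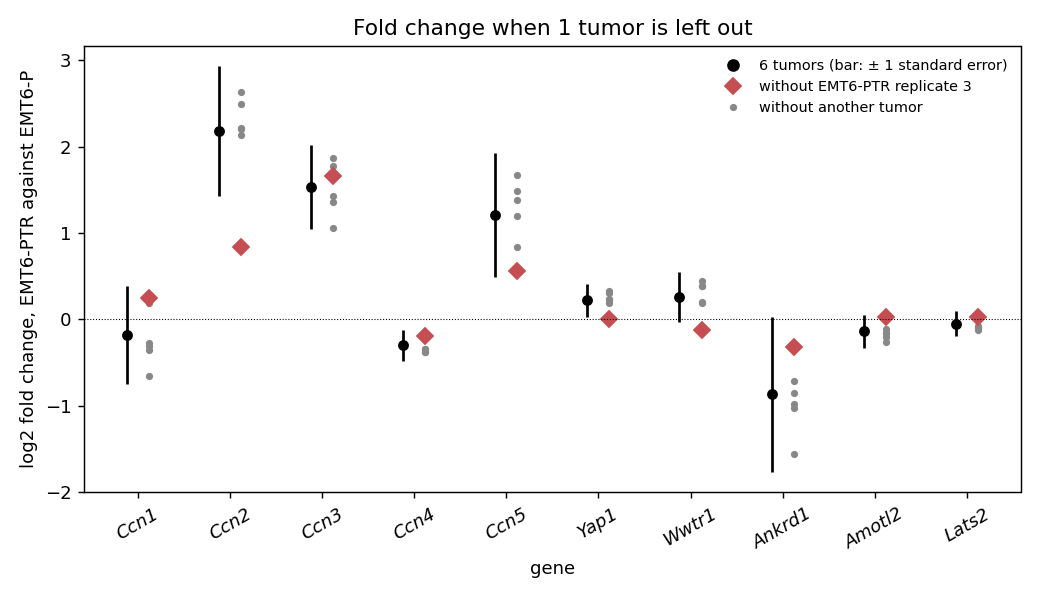
Log2 fold change of each gene in EMT6-PTR against EMT6-P tumors from all 6 tumors (black, with ± 1 SE) and with 1 tumor left out at a time (grey, or a red diamond where EMT6-PTR replicate 3 is left out). Without that replicate, Ccn2 moves from 2.18 to 0.84 while Ccn3 stays at 1.66.

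To place the genes against each other, CPM was divided by the length of the merged exons. In EMT6-P tumors the order of the levels, in CPM per kb, was headed by Ccn1 at 161.9 ± 63.85 (SD, n = 3), Ccn2 at 98.03 ± 5.65 and Ankrd1 at 63.73 ± 14.4. Each of these stood apart from the next, since the ranges of the 3 tumors did not overlap. Amotl2 at 34.61 ± 1.383, Ccn4 at 30.25 ± 4.393, Ccn5 at 26.69 ± 13.6 and Wwtr1 at 21.65 ± 3.264 followed, and each neighbor in this stretch overlapped the next. Yap1 at 12.53 ± 0.4279, Lats2 at 6.183 ± 0.6058 and Ccn3 at 0.253 ± 0.09222 closed the order, each apart from its neighbors. In EMT6-PTR tumors Ccn2 came first at 444.5 ± 469.4, ahead of Ccn1 at 142.9 ± 91.11, followed by Ccn5 at 61.89 ± 45.43, but their ranges overlapped. The lower end of the order, Yap1, Lats2 and Ccn3, was the same in EMT6-PTR tumors and in the metastasis. The EMT6-P order did not change with the length of the longest transcript or with TMM scaling.

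**Figure D4:**
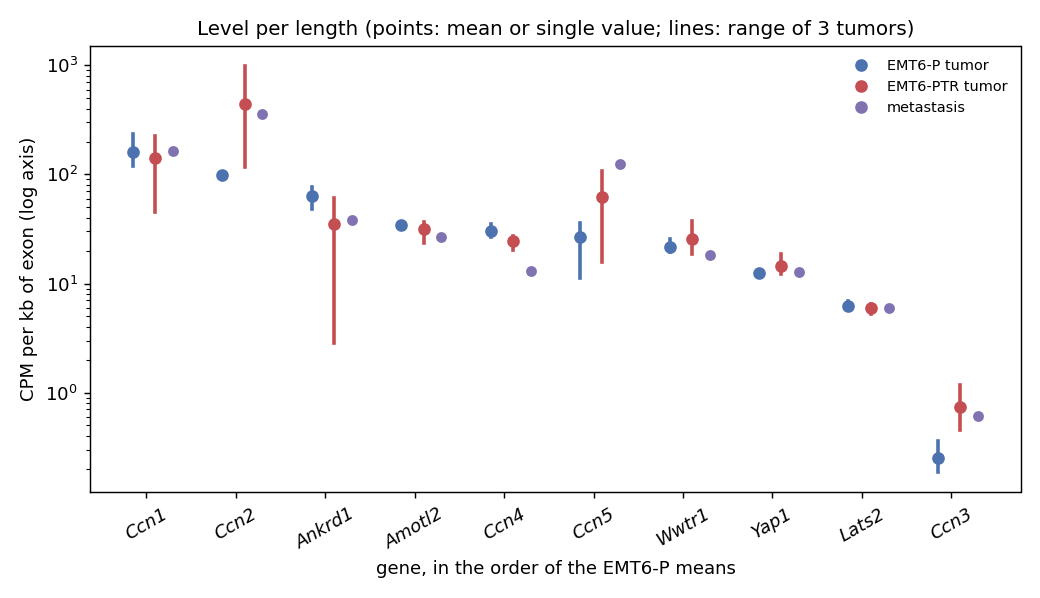
CPM per kb of merged exon on a log axis for the 10 genes, in the order of their EMT6-P means. Circles are means of 3 tumors or the single metastasis, and lines span the 3 tumors. Ccn1 heads the EMT6-P order at 161.9 and Ccn2 the EMT6-PTR order at 444.5.

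The other genes of the pathway were read from 7 lists, which hold no member. In each of them edgeR called 0 genes higher and 0 lower, and DESeq2 called 0. Among 21 Hippo kinases and adaptors, 15 had a log2 fold change above 0 and the median was 0.14. The groups were fully separated for 8 of them, upward for 6 and downward for 2, or 6 and 2 of 21 beside 9.52% and 11.8% of all genes. The smallest p-values were those of Amot, a YAP-binding angiomotin (log2 fold change 0.71 ± 0.22), of its relative Amotl1 (0.42 ± 0.14) and of Taok1, a kinase upstream of the cascade (0.32 ± 0.13). Their adjusted p in edgeR's quasi-likelihood test was 0.421, 0.427 and 0.437. Amot had 31.4, 30.8 and 38.4 CPM in EMT6-P and 44.8, 47.7 and 72.3 CPM in EMT6-PTR tumors. For their relative Amotl2 the groups overlapped, and a difference between these genes was not tested.

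Of 8 TEAD factors and VGLL cofactors, 6 passed the filter, all with a log2 fold change above 0 and a median of 0.31, and Vgll1 and Vgll2 did not pass it. Vgll4, which competes with YAP for TEAD, had 29.9, 30.1 and 35.2 CPM in EMT6-P and 46.7, 46.7 and 39.3 CPM in EMT6-PTR tumors. Its log2 fold change was 0.48 ± 0.14 (adjusted p = 0.421 in edgeR), and that of Tead1, a DNA-binding partner of YAP, was 0.34 ± 0.14 (adjusted p = 0.437). Tead3 followed at 0.57 ± 0.30 (adjusted p = 0.489). For Vgll4 and Tead1 the groups did not overlap, and EMT6-PTR replicate 3 was the highest tumor for Tead1 but the lowest of its group for Vgll4.

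Among 17 other YAP/TEAD target genes, 9 lay above 0 and 8 below, and the median was 0.01. Crim1, a transmembrane regulator of growth factors, had a log2 fold change of 0.55 ± 0.20 and F3, the tissue factor that starts coagulation, one of 1.04 ± 0.37, both with an adjusted p of 0.427 in edgeR. Arhgef17, a guanine nucleotide exchange factor, followed at 0.25 ± 0.13 (adjusted p = 0.488). Axl, a receptor tyrosine kinase often used as a YAP readout, had 303, 342 and 294 CPM in EMT6-P and 312, 386 and 309 CPM in EMT6-PTR tumors. Axl was named after its values were seen. EMT6-PTR replicate 3 was the lowest tumor for 9 of the 17 and the highest for 4, or 52.9% and 23.5%, beside 34.5% and 32.7% of all genes.

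Of 15 genes of the SRF and MRTF list, 10 lay below 0, the median was -0.20 and it was 0.10 without EMT6-PTR replicate 3. EMT6-PTR replicate 3 was the lowest tumor for 11 of the 15, or 73.3%, beside 34.5% of all genes. Tagln, an actin-binding protein of contractile cells, had 67.1, 90.5 and 74.4 CPM in EMT6-P and 105, 96.2 and 3.91 CPM in EMT6-PTR tumors. Actg1, cytoplasmic gamma actin, had 5450, 6220 and 5270 CPM in EMT6-P and 4640, 4270 and 1300 CPM in EMT6-PTR tumors, with a log2 fold change of -0.73 ± 0.46 (adjusted p = 0.544 in edgeR). Actb, beta actin, had -0.44 ± 0.30 (adjusted p = 0.573). Mrtfb, a cofactor of SRF, had a value above 0, at 0.29 ± 0.12 (adjusted p = 0.435). Tagln and Cnn1, which was at 0 counts in EMT6-PTR replicate 3 (a limit of 0.117 CPM), are also markers of smooth muscle. The summed CPM of the 7 smooth muscle and pericyte markers was 123 there against 639 to 882 in the other tumors. Most of that sum in the other tumors was Acta2, at 508 to 684 CPM against 54.2 CPM in EMT6-PTR replicate 3. Notch3 went the other way, at 38.4 CPM there against 9.02 to 24 CPM, while the rest of the list was lowest there.

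All 7 TGF-beta response genes, as against 34.5% of all genes, were lowest in EMT6-PTR replicate 3, the tumor with the highest Ccn2. Their median log2 fold change was -0.02, and 0.41 without that tumor. By the rule for named genes, Pmepa1, an inhibitor of TGF-beta signaling, had a log2 fold change of -0.40 ± 0.20, Tgfb1i1, a focal adhesion adaptor, -0.25 ± 0.21 and Skil, a repressor of SMAD activity, 0.15 ± 0.29. Their adjusted p in edgeR was 0.479, 0.64 and 0.844.

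Of 8 Wnt/beta-catenin response genes, read beside Ccn4, 4 passed the filter, with a median of 0.15. Tcf7 had a log2 fold change of 0.32 ± 0.21, Znrf3 0.24 ± 0.22 and Nkd1 0.07 ± 0.60, with an adjusted p of 0.56, 0.658 and 0.967 in edgeR. All 12 genes of the CCN receptor list were tested, 4 above 0 and 8 below, with a median of -0.14, which turned to 0.14 without EMT6-PTR replicate 3. That tumor was the lowest for 8 of the 12, or 66.7%, beside 34.5% of all genes. Lrp6, a Wnt coreceptor that binds CCN2, had 51.3, 53.8 and 63.2 CPM in EMT6-P and 80.4, 91.7 and 150 CPM in EMT6-PTR tumors. Its log2 fold change was 0.94 ± 0.26, that of Notch1, which binds CCN3, 0.63 ± 0.19 and that of Lrp1, an endocytic receptor for CCN2, 0.61 ± 0.24. Their adjusted p in edgeR was 0.421, 0.421 and 0.433. Among the integrin subunits of the list Itgb2 alone lay above 0. Itgb1, the beta subunit shared by many integrins, had 1130, 1390 and 1260 CPM in EMT6-P and 1160, 927 and 796 CPM in EMT6-PTR tumors. Itgb1 was named after its values were seen.

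**Figure D5:**
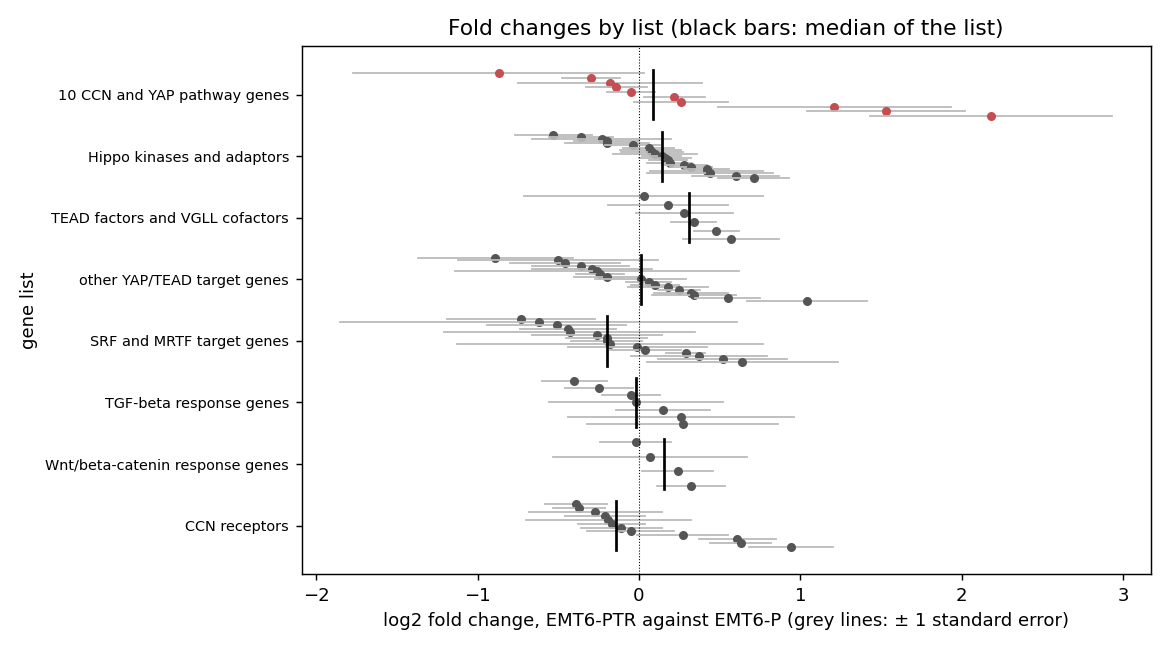
Log2 fold change of EMT6-PTR against EMT6-P tumors for the 10 genes (red) and the tested genes of 7 pathway lists (grey), with lines of ± 1 SE and a black bar at the median of each list. The medians of the lists lie between -0.20 and 0.31, while Ccn2 stands at 2.18.

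The metastasis is a single library with no replicate, so its values carry no test. Ccn2 had 1017 CPM there, above all EMT6-P tumors and between EMT6-PTR replicates 2 and 3. Ccn5 had 240.2 CPM, above all 6 tumors, and Ccn4 had 72.1 CPM, below all 6. Against the mean of the EMT6-PTR tumors, with which it shares the arm, Ccn5 was 2.02 times as high and was the 1 member of 10 to pass 2-fold upward, with 0 downward. Over the whole table, 10.6% of the tested genes passed 2-fold upward and 11.1% downward. Leaving EMT6-PTR replicate 3 out of the mean gave a ratio of 2.02 for Ccn2, 3.15 for Ccn5 and 0.487 for Ccn4, or 3 members past 2-fold, and leaving out replicate 1 gave 0.

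Ccn1 at 330.3 CPM, Yap1 at 118.7 CPM, Ccn3 at 1.759 CPM and Lats2 at 41.6 CPM lay inside the range of the 6 tumors, as did Ankrd1 at 111.5 CPM and Amotl2 at 167.2 CPM. Wwtr1 at 87.61 CPM lay just below it. Of the 6 tumors, EMT6-PTR replicate 3 alone had less Ankrd1 than the metastasis, which stood at -0.69 from the EMT6-P mean on the log2 scale, against -4.39 in that tumor. Ccn1 stood at 0.08 in the metastasis and at -1.78 in EMT6-PTR replicate 3. Its ratio of Ccn2 to Ccn1 per kb was 2.17 and of Ccn2 to Ankrd1 9.2, between EMT6-PTR replicates 2 and 3 in both cases. Of other tissue in the library, 8 lung markers summed to 8770 CPM, against 5.09 to 27.6 CPM in the 6 tumors. The fibroblast markers summed to 10200 CPM, inside the tumor range of 3440 to 16700 CPM, and Col3a1 gave 6620 CPM of this. Col1a1 at 2210 CPM lay below all 6 tumors and Dpt at 16.5 CPM above them. The endothelial markers summed to 1020 CPM against 138 to 177 CPM in the tumors, and the immune markers to 1020 CPM against 289 to 651 CPM. The part of RNA from these cell types in these levels was not tested.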

How the data were processed

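RNA-seq of 7 libraries was used (3 EMT6-P, 3 EMT6-PTR, 1 metastasis), with groups taken from the sample labels. The authors made stranded polyadenylated libraries, aligned reads to GRCm38 with STAR 2.6.0a and estimated gene counts with RSEM 1.3.1, after quality checks with FastQC 0.11.5. The deposited values are these expected counts, not normalized. Counts were rounded, filtered with filterByExpr and scaled by upper quartile, and EMT6-PTR was compared with EMT6-P in edgeR 4.0.16 (quasi-likelihood, R 4.3.3) with Benjamini-Hochberg adjustment at 0.05. SE is the size of the log2 fold change over the square root of F. A count of 0 allows up to 3 counts, for counting error only. Log2 CPM of single libraries was taken after adding 0.5 to CPM, which narrows the log2 differences of scarce genes such as Ccn3.

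The members and lists were chosen with earlier results of these data known. Named genes are the members, 3 genes per list with the smallest p-values, marker genes, and up to 3 genes nearest each member in pattern, and exceptions are marked. Some genes that this rule names are not reported here. Alternatives were TMM, DESeq2 1.42.0, limma-voom (limma 3.58.1), other filters, the metastasis in the fit, a replicate block, omission of CT010467.1, and leaving out each tumor. Fits were checked on counts drawn with known changes. Lengths and positions came from GENCODE M21 of the same build and promoters from RefSeq. Tables and plots used Python 3.11.15, pandas 2.3.3 and matplotlib 3.10.9.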

Additional observations from a re-analysis of the deposited data

How the results depend on the processing

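DESeq2 called 281 of all genes where edgeR called 0 (1786 at an unadjusted p under 0.05). No other alternative called any gene, and none called a member or a listed gene. The number of members at least 2-fold changed was 3 of 10. It was 4 in limma-voom and with the replicate block, which added Ankrd1, and ranged from 1 to 4 when 1 tumor was left out, with 1 only without EMT6-PTR replicate 3. For the metastasis against the EMT6-PTR mean, this number was 1 and ranged from 0 to 3 when 1 EMT6-PTR tumor was left out. Of 140 member fold changes under alternatives, 138 moved by less than the SD between replicates and 133 kept their sign. The 2 that moved more were Ccn2 without EMT6-PTR replicate 3 (0.84) and Ccn3 without EMT6-PTR replicate 2 (1.06). The SD between replicates includes EMT6-PTR replicate 3 and is wide where that tumor stood apart. Ankrd1 therefore stayed within it when moving from -0.87 to -1.73 in limma-voom. Of all genes, 624 were at least 2-fold higher and 539 lower in limma-voom, against 981 and 202 in edgeR.

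The replicate numbers do not pair the tumors by the labels, and deviations of same-numbered tumors correlated at 0.25, 0.23 and 0.07 across genes. Each tumor correlated best with its own number, a hint from the data only, but for number 3 the margin was small. EMT6-PTR replicate 3 correlated at 0.06 with EMT6-P replicate 2, and EMT6-P replicate 3 at 0.05 with EMT6-PTR replicate 1. With the replicate block, edgeR called 0 genes, and Ccn2 had a log2 fold change of 1.58 and Ankrd1 of -1.58. With 3 tumors per group, a difference that misses the threshold is not shown to be absent.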

Other observations

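The genes whose centered log2 CPM followed each member most closely over the 7 libraries were found by the root mean square difference, with up to 3 named per member. For Ccn2 they were Pik3r1, a regulatory subunit of PI3 kinase (difference 0.19), Adamts5, an aggrecan-cleaving protease (0.25), and Rnf207 (0.26). Pik3r1 had 30.8, 31.8 and 36 CPM in EMT6-P replicates 1 to 3, 42.3, 56.9 and 352 CPM in EMT6-PTR replicates 1 to 3 and 118 CPM in the metastasis. For Ankrd1 they were Hbegf, an EGF receptor ligand (0.30), Tagln (0.36) and Gm15725 (0.37). Hbegf had 119 to 132 CPM in the EMT6-P tumors, 123, 120 and 8.67 CPM in EMT6-PTR replicates 1 to 3 and 81.4 CPM in the metastasis. For Ccn1 they were Ror2, a Wnt5a receptor (0.11), Vegfa, an endothelial growth factor (0.21), and Adamts2, a procollagen peptidase (0.24). Vegfa had 224, 308 and 192 CPM in EMT6-P replicates 1 to 3 and 290, 404 and 91.8 CPM in EMT6-PTR replicates 1 to 3. Such likeness over 7 libraries leans on EMT6-PTR replicate 3.

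For Ccn5 the nearest included Adgrg2 (0.30) and Plac8 (0.38), and they were for Ccn3 Gm6768, Gm2274 and Pcdhb21 (0.20 to 0.24). Ccn4 was followed by Hnrnph1, Cd276 and Rpa3 (0.07 to 0.09), Yap1 by genes including Tctn3 (0.04) and Smarcc2 (0.05), and Wwtr1 by Tbck, Fundc1 and Fgfr1 (0.08 each). Amotl2 was followed by Pigq, Mmaa and Anp32a and Lats2 by Fbxo28, Tbc1d25 and Gm29084 (0.05 to 0.06), and flat genes have small differences by construction. Among the members, Amotl2 and Lats2 were the closest pair (0.15), then Yap1 and Wwtr1 (0.17), while Ccn2 and Ccn1 differed by 1.75 and Ccn2 and Ankrd1 by 2.61.

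Some listed genes stood far apart in the metastasis. F3 had 362 CPM there against 8.49 to 36 CPM in the 6 tumors, and Nkd1, a Wnt antagonist, 98 CPM against 0.625 to 2.45 CPM. Acta2 had 67.8 CPM there and 54.2 CPM in EMT6-PTR replicate 3, against 508 to 684 CPM in the other 5 tumors. These 3 genes were picked after their values were seen, and lung RNA in that library was not separated from tumor RNA.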
